A study of Mus musculus with 100 samples.

Results

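The data described here are ChIP-seq libraries for histone deacetylase 3 (HDAC3) in bone marrow-derived macrophages (BMDMs) of wild-type C57BL/6 mice, 4 of the 100 samples of the series. HDAC3_WT_Veh (vehicle) and HDAC3_WT_KLA (Kdo2 lipid A, an agonist of Toll-like receptor 4, applied for 6 h) had 2 biological replicates each, chosen by the antibody, genotype and treatment in the sample labels. No transgene, deletion or inhibitor was present in these 4 samples. Their tags were counted at 48502 peaks, which were the merged peak lists of both conditions, and all 48502 passed the minimum of 4 tags in 1 library. The comparison asked where on the genome HDAC3 was gained and where it was lost when the macrophages were exposed to KLA.

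HDAC3 is the catalytic deacetylase of the complexes built around the nuclear receptor corepressor (NCoR), which bring it to chromatin through unliganded nuclear receptors, Bcl6, Rbpj and other factors. In its classical role it removes acetyl groups from histones, H3K27 among them, at repressed genes. Toll-like receptor 4 signals through MyD88 and TRIF to the transcription factors NF-kB, AP-1 and the interferon regulatory factors, which switch on cytokine, chemokine and interferon-stimulated genes. PU.1 is the lineage-determining factor of macrophages and marks most of their enhancers.

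The libraries held 13.7 and 18.1 M tags with Veh and 17.1 and 5.69 M with KLA, so that KLA replicate 2 was the shallowest. It also stood apart in enrichment: 46.5% of its tags lay in the peaks, against 31.2% in KLA replicate 1 and 34.5% and 33.7% in the Veh libraries. Across peaks its level was a median 0.57 log2 units above KLA replicate 1, and the 2 KLA libraries correlated less with each other (Pearson r across peaks = 0.875) than the 2 Veh libraries did (r = 0.959). Its part in the counts over all peaks, classes, lists, motifs and named peaks was measured by repeating the comparison without it. The counts of called peaks at most single genes, the fold classes and the sites shared by several factors are given with all libraries only. Values are given per 10 M tags of the library total. In the H3K27ac libraries of the series (labelled WT, genotype NCoR flox/flox), 5 of the 9 symbols listed for macrophages, of which Emr1 is an older name of Adgre1, had an acetylated region within 2 kb of their start, Spi1 and Cd68 among them, with a summed level of 255 to 381 tags per 10 M per library. Adgre1, Csf1r and Lyz2 had none so close. Of the 6 B cell, 7 T cell, 6 neutrophil and 5 fibroblast markers none had one, and of the 5 dendritic cell markers Zbtb46 alone did, at 0 to 1.26.

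The sequences of the strongest sites on each side are shown first, because the rest of the description returns to them. Each is 200 bases about the peak centre on the plus strand of mm10 (read from GRCm38.p6), and capitals mark matches to 5 motifs searched on both strands: the kappaB consensus bound by NF-kB, the AP-1 element TGANTCA, the PU.1 element GAGGAAGT, and the consensus elements of the ROR and Rev-erb receptors (RORE) and of LXR (a nuclear receptor DR4). The first 3 are the peaks with the lowest p among those that gained HDAC3, 1 per gene. 
Mir155hg (chr16:84713141-84713340): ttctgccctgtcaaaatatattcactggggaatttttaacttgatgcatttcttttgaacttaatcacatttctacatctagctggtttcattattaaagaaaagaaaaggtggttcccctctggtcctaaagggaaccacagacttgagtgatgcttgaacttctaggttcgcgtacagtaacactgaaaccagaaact
Slco3a1 (chr7:74527807-74528006): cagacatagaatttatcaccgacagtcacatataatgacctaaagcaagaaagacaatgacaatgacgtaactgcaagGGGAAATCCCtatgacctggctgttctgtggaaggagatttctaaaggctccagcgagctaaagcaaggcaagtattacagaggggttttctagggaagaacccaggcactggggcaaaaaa
Ccl5 (chr11:83530535-83530734): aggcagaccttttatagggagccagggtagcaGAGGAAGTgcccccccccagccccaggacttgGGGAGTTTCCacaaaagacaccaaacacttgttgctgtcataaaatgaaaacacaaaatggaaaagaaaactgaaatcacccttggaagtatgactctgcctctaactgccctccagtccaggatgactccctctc
The next 3 are the peaks with the lowest p among those that lost HDAC3. 
Angptl4 (chr17:33779369-33779568): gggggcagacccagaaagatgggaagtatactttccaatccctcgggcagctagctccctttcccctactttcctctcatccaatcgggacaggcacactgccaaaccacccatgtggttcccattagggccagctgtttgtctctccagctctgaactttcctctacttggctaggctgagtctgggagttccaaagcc
Npas2 (chr1:39192729-39192928): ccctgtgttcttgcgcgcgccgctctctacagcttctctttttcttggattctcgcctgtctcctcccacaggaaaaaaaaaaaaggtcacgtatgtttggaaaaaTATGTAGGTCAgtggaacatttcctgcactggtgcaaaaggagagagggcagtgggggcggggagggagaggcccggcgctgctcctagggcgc
Mvb12b (chr2:33870420-33870619): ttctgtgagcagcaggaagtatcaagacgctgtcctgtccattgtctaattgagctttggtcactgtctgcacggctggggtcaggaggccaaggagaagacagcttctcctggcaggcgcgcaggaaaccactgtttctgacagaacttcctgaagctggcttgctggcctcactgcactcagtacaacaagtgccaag
Npas2 had a second strong peak farther upstream that was not called, shown for the contrast. 
Npas2 upstream (chr1:39191646-39191845): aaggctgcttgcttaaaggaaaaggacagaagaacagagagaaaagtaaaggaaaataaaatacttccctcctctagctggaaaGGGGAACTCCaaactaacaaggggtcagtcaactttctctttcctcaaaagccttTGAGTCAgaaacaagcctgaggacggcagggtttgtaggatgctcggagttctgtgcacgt
The Slco3a1 and Ccl5 windows held the kappaB consensus and the Npas2 window that lost HDAC3 held the RORE, whereas the Npas2 window upstream of it held a kappaB consensus and an AP-1 element. The Mir155hg, Angptl4 and Mvb12b windows held none of the 5 in these letters.

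With KLA, HDAC3 was higher at 13360 peaks and lower at 5463 (edgeR quasi-likelihood test on raw tags scaled to the library totals, Benjamini-Hochberg adjusted p below 0.05 and over 2-fold), which were 27.5% and 11.3% of all peaks tested. At 13332 of the higher peaks both KLA libraries lay above both Veh libraries, and at 5462 of the lower peaks both lay below. The calls were made on these same libraries, so this separation follows largely from the call rule and is no separate support for them. In a bulk ChIP a lower level per cell and fewer cells with the protein at a site cannot be told apart. The gains were the larger changes. Of the higher peaks, 26.4% rose 4- to 8-fold, 13.4% 8- to 16-fold and 13.8% more than 16-fold, while of the lower peaks 73.1% fell 2- to 4-fold and 1.41% more than 16-fold. The higher peaks had a median level of 12.8 tags per 10 M with Veh and 61.8 with KLA, and 623 of them held at most 3 tags over both Veh libraries. The lower peaks had medians of 85.3 with Veh and 29 with KLA, and none was empty in both KLA libraries, although 145 (2.65%) had no tag in KLA replicate 2.

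**Figure D1:**
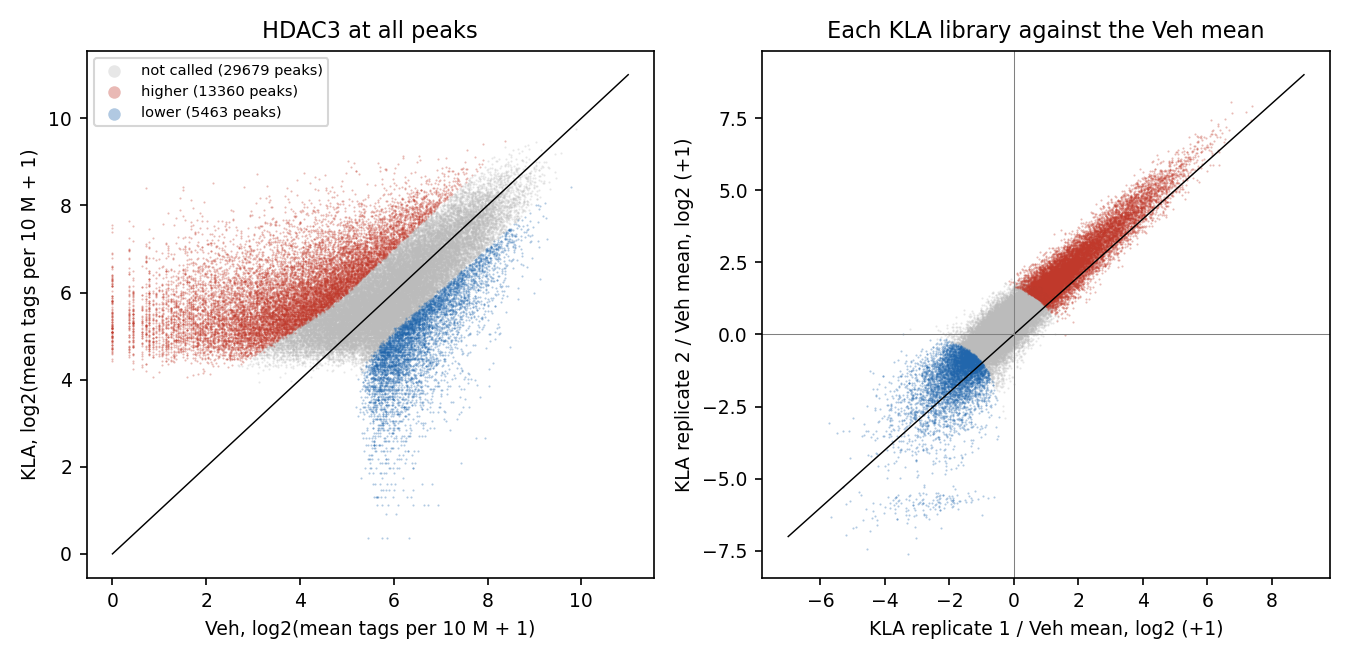
Left, mean HDAC3 level of each peak with Veh (x) and KLA (y), as log2 of tags per 10 M plus 1. Right, the ratio of KLA replicate 1 (x) and KLA replicate 2 (y) to the Veh mean at the same peaks, on the log2 scale after adding 1. Each point is a peak, red where HDAC3 was higher with KLA, blue where it was lower and grey where it was not called, and the line marks equality. The higher peaks lie above zero in both KLA libraries apart from 5 library values. On the right most points lie above the line, and the cause of the higher level of replicate 2 was not tested.

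The 2 KLA libraries gave the same direction at nearly all called peaks, which the call rule favours, but not the same size. On the log2 scale after adding 1 tag per 10 M, the higher peaks stood a median 1.72 above the Veh mean in KLA replicate 1 and 2.32 in replicate 2. The lower peaks stood at -1.74 and -1.35. Of the higher peaks, 83% were past 2-fold in replicate 1 and 99.4% in replicate 2, and of the lower peaks 96% and 72.5%. Without KLA replicate 2, edgeR called 10842 peaks higher and 8112 lower, of which 10687 and 5273 were among the peaks called with it. With trimmed-mean (TMM) factors, which rescale the libraries to their bulk of peaks, it called 11800 higher and 7913 lower, so that the share of calls that were higher was 59.9%, not 71%. The median log2 change of all peaks was 0.27 with the library totals, -0.01 with TMM factors and -0.04 without KLA replicate 2. Without Veh replicate 1 the counts were 5985 and 1567, and without Veh replicate 2 they were 5880 and 1561. No peak was called in opposite directions by any of these fits. At 4827 peaks HDAC3 was higher, and at 1361 lower, in each of 6 fits (all libraries, TMM factors, and without each library in turn).

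The peak with the lowest p lay in the promoter of Mir155hg, the host gene of the inflammatory microRNA miR-155, 217 bases past its start (chr16:84713110-84713370, counted over this whole interval). HDAC3 there measured 0.727 and 0.553 tags per 10 M in the Veh libraries, 1 tag in each, and 273 and 397 in the KLA libraries. From these counts KLA exceeded Veh 483-fold, with an exact 95% interval of 133 to 3998 that covers counting error only. All 9 HDAC3 peaks assigned to Mir155hg were higher.

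Next came an intronic peak of the transporter gene Slco3a1 (chr7:74527795-74528017), at 1.45 and 2.21 with Veh and 268 and 413 with KLA, a log2 change of 7.42 ± 0.56 (SE). The promoter of Ccl5, a chemokine for T cells and monocytes, held 1.45 and 2.21 with Veh and 229 and 425 with KLA at a peak 116 bases before its start (chr11:83530520-83530749), a log2 change of 7.36 ± 0.55. The edgeR adjusted p was 2.96e-36 for the first and 3.46e-36 for the second. In all 3 loci the Veh libraries were close to empty and the KLA libraries did not overlap with them.

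Several of the strongest gains started from no tag at all. A peak 1.79 kb before the start of Il1a, which encodes interleukin 1 alpha, held no tag in either Veh library and 162 and 170 tags per 10 M with KLA (chr2:129311646-129311873). Taking 3 tags over both Veh libraries as the floor, it was at least 174-fold higher. A peak in an intron near Rims3 went from no tag to 105 and 267, at least 155-fold, and a peak nearest to Ptgs2os2, a non-coding RNA upstream of the cyclooxygenase gene Ptgs2, went from no tag to 146 and 207, at least 171-fold. The other peaks of the 10 with the lowest p were nearest to Adora2a (an adenosine receptor), Mir101b, Vash1 and Ube2z, with 0 to 2.91 tags per 10 M in any Veh library and 127 to 372 in any KLA library. Assignment is to the nearest annotated start and does not say which gene a peak acts on.

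The peak with the lowest p among the losses lay in an intron 2107 bases past the start of Angptl4, an inhibitor of lipoprotein lipase (chr17:33779359-33779577). HDAC3 measured 246 and 242 with Veh and 5.27 in each KLA library, a log2 change of -5.51 ± 0.50 (edgeR adjusted p = 4.22e-25). The next lay 1.44 kb before the start of Npas2, a partner of BMAL1 in the circadian clock (chr1:39192724-39192933), with 214 and 215 against 7.03 and 3.51, a log2 change of -5.15 ± 0.49. The third lay in an intron of Mvb12b, a subunit of the ESCRT-I sorting complex (chr2:33870418-33870620), with 182 and 164 against 6.45 in KLA replicate 1 and no tag in KLA replicate 2. Here the Veh libraries agreed closely and the KLA libraries held few tags, replicate 2 in particular, where 3 tags amount to 5.27 per 10 M.

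The other losses of the leading 10 were nearest to B3gntl1, Lyzl4, Tbc1d9, the prostaglandin receptor gene Ptger2, Zfp438, Mir1960 and Park2. Their Veh libraries lay between 95.3 and 274 and their KLA libraries between 0 and 16.4 tags per 10 M. Each of the 20 peaks named so far kept its call without KLA replicate 2 and in the 5 other fits.

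**Figure D2:**
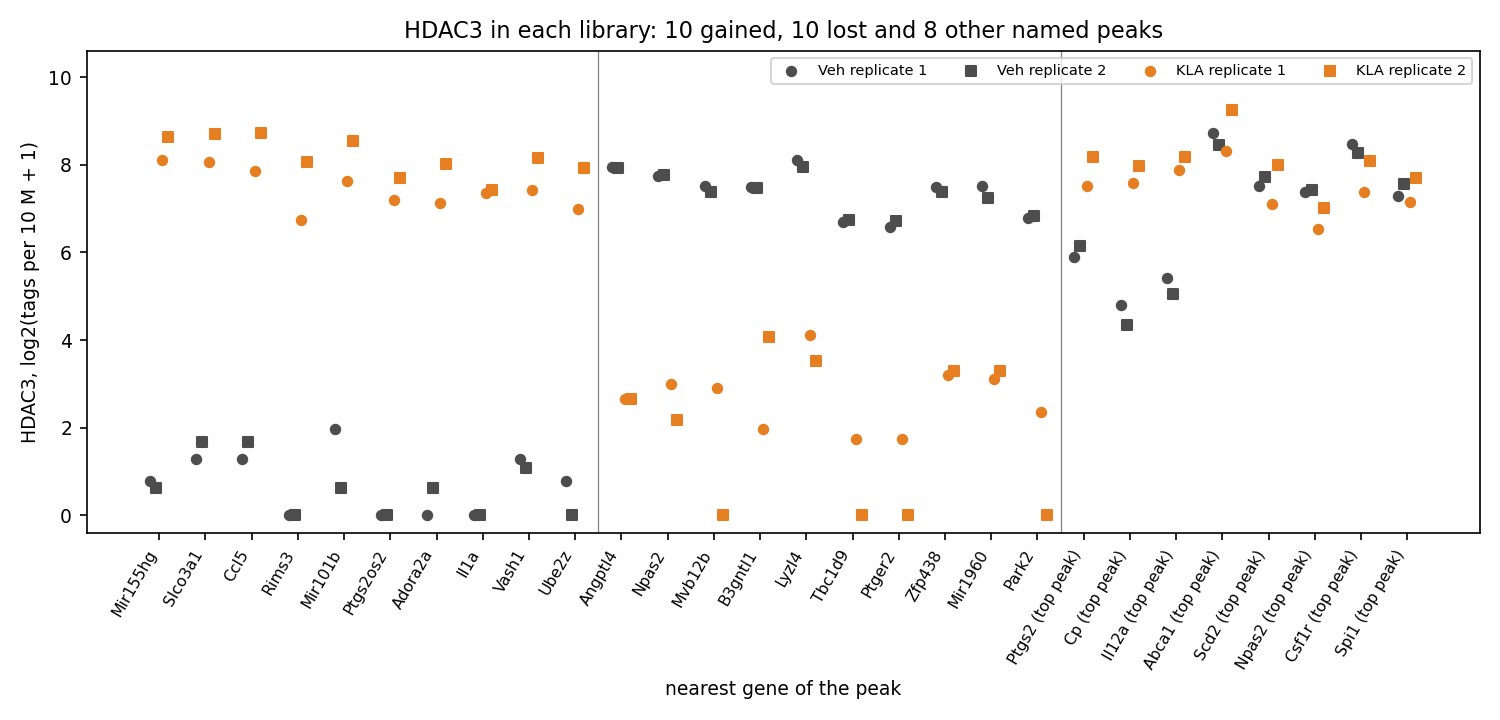
HDAC3 in each library at 28 peaks, as log2 of tags per 10 M plus 1 (y), by the nearest gene (x). From left to right are the 10 peaks with the lowest p that were higher, the 10 that were lower and the strongest peak of 8 genes. These are genes that the study followed or that mark macrophages, and the clock gene Npas2. Grey symbols are Veh, orange KLA, circles replicate 1 and squares replicate 2. In the first and second groups, picked by their p in these libraries, no KLA library overlaps with a Veh library.

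Where HDAC3 changed depended on the distance from gene starts. Distal peaks, over 2 kb from the nearest start, were higher at 11673 and lower at 4650 of 38459, 30.4% and 12.1%. Proximal peaks were higher at 1687 and lower at 813 of 10043, 16.8% and 8.1%. Within 200 bases of a start the shares dropped to 7.08% higher and 6.09% lower of 4647 peaks, and beyond 100 kb they reached 32.8% and 12.8% of 4305. The low share of gains at starts held in each fit, but the balance there did not. With TMM factors 235 of the peaks within 200 bases were higher and 494 lower, and without KLA replicate 2 the numbers were 204 and 524, so that within 200 bases the more frequent direction turned with the scaling and with that library. Over all proximal peaks it did not turn with TMM factors (1418 higher and 1270 lower) but did without KLA replicate 2 (1230 and 1370).

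**Figure D3:**
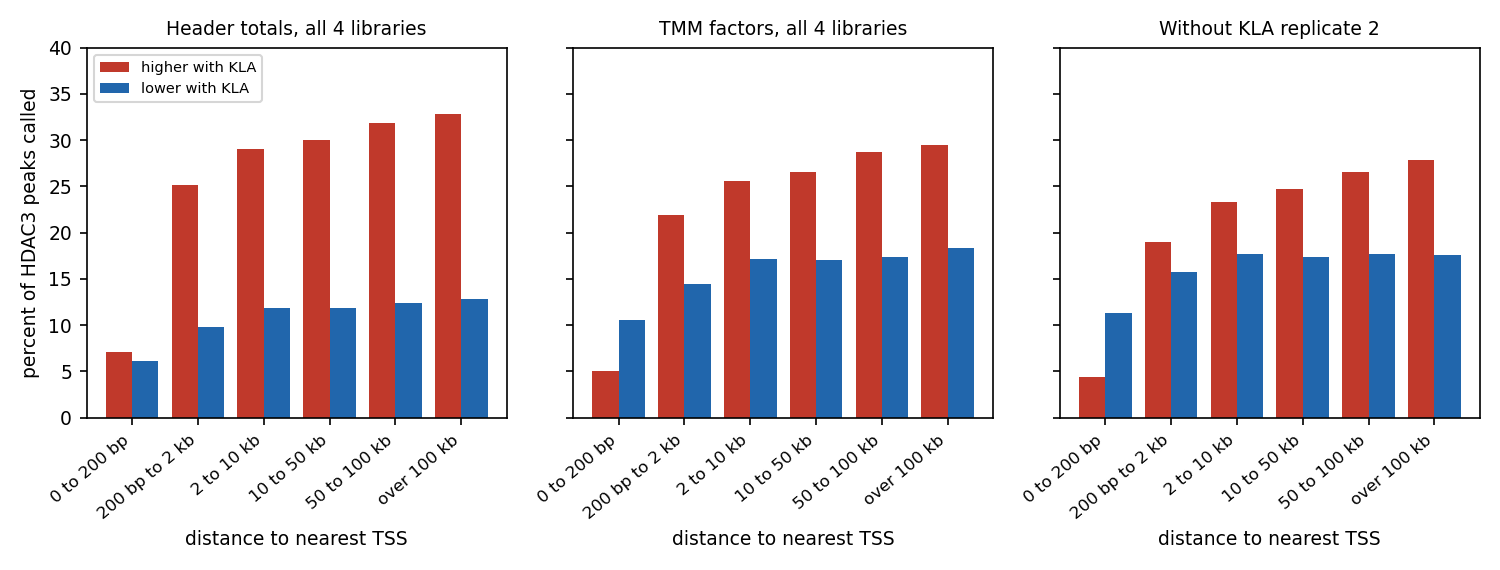
Percent of HDAC3 peaks called higher (red) and lower (blue) with KLA (y) by distance to the nearest gene start (x), with the library totals (left), with TMM factors (middle) and without KLA replicate 2 (right). Gains were least frequent within 200 bases of a start in each panel, from 4.39% to 7.08%, and there the losses outnumbered the gains in the middle and right panels.

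The annotation classes followed the same order. HDAC3 was higher at 31.3% of 18276 intergenic peaks, 29.4% of 21975 intronic peaks and 10.9% of 6219 promoter peaks, and lower at 11.6%, 12.1% and 7.01%. Exons (433 peaks) and transcription termination sites (694) had 24% and 27.8% higher. Among peaks that HOMER placed in repeats, those in LINE elements were higher at 41.4% of 2626, against 31.5% of 3824 in LTR elements and 30.6% of 1434 in SINEs. CpG islands outside promoters had 15% of 579 peaks higher. The origin of a peak in the lists of the 2 conditions, which were called on these same libraries, mirrored the calls. Of all peaks, 47.7% were in the KLA list alone, 7.93% in the Veh list alone and 44.3% in both. The set of peaks tested thus held more sites found with KLA alone than with Veh alone. Of the higher peaks, 90% were in the KLA list alone, and of the lower peaks 50.9% were in the Veh list alone and 48.5% in both.

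Among the gene lists, those of the interferon and inflammatory response had the highest shares of gains. For 39 interferon-response genes, which encode antiviral and antigen-presentation proteins, HDAC3 was higher at 148 of 206 peaks and lower at 3 (71.8% and 1.46%), with a median log2 change of 1.98 against 0.27 over all peaks. Of the 39 genes 35 had at least 1 gain, as had 5648 of the 12151 genes with any peak. A gene with more peaks has more occasions for a gain. At Rsad2, which encodes the antiviral enzyme viperin, 14 of 15 peaks were higher. The strongest (chr12:26441133-26441691) went from 0.727 and no tag to 120 and 170. All 14 peaks of Ifit3 and 14 of 16 peaks of Mx1 were higher too. The 3 losses lay near Irf1, Irf7 and Trim25, and the one near Trim25 (chr11:88996456-88996665) fell from 168 and 163 to 25.8 and 40.4 while p65 and p300 were higher at the matched site, by 1.25 and 1.47 on the log2 scale.

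The cytokine list gave a similar picture, with 120 of 206 peaks higher, 5 lower and a median of 1.57. For Il6, 15 of 18 peaks were higher, and the strongest, 133 kb upstream (chr5:29880183-29880432), held 1.45 and no tag with Veh and 162 and 186 with KLA. Il12a had 10 of 12, Il1a 8 of 14, Il27 all of 7, and Inhba, the activin A subunit gene, 8 of 9 peaks higher. The losses lay near Csf1 (3), Ifnb1 (1) and Il15 (1). At the macrophage growth factor gene Csf1, a peak 13.7 kb upstream (chr3:107774055-107774265) fell from 320 and 298 to 27 and 38.6, a log2 change of -3.29 ± 0.41.

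Of the chemokine genes, 17 of 19 with a peak had a gain (5648 of 12151 over all genes), at 66 of 141 peaks (46.8%). Cxcl10 had all of 7 peaks higher, Ccl5 10 of 13 and Cxcl5 7 of 10. Ccl3 had 7 higher peaks and 1 lower. Ccl6, a chemokine that resting macrophages already express, had 1 of 14 peaks higher, and a strong peak 23.7 kb upstream that fell from 591 and 505 to 96.1 and 167, a call that was lost without either Veh library.

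Inflammatory effector genes were higher at 120 of 212 peaks and lower at 9. Acod1, the itaconate-producing enzyme, had 15 of 16 peaks higher, Edn1, the endothelin 1 gene, 22 of 28, Nos2, the inducible nitric oxide synthase, 7 of 8, and Cd274, the PD-L1 gene, 9 of 12. Saa3, an acute phase protein, rose at its promoter from 1.45 and 1.11 to 125 and 123 (chr7:46715706-46715963). Arg1, the arginase that competes with Nos2 for arginine, had 2 of 4 peaks lower and none higher. The cystine transporter gene Slc7a11 had 4 of 20 lower and 2 higher.

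HDAC3 also accumulated at the genes that carry and that restrain the signal. Among 23 NF-kB subunits and feedback inhibitors, 161 of 288 peaks were higher and 6 lower, and 22 of the 23 genes had a gain (5648 of 12151 over all genes). The deubiquitinase gene Tnfaip3 (A20) had 26 of 44 peaks higher, Nfkbiz 19 of 33, Nfkb1 17 of 24 and Nfkbia, which encodes IkB alpha, 10 of 18. Nfkb1 gained and lost HDAC3 within its own introns: a peak 51.2 kb into the gene (chr3:135640270-135640475) rose from 2.18 and 3.32 to 146 and 283, and one 88.6 kb in (chr3:135602835-135603040) fell from 80 and 68 to 13.5 and no tag.

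SOCS, DUSP and RNA-decay regulators had 100 of 261 peaks higher and 27 lower, with Pde4b, Zc3h12c and Socs3 at 23 of 38, 18 of 25 and 10 of 16 higher. Dusp6 and Zfp36l2 went the other way in number, with 7 and 8 peaks lower against 3 and 4 higher. Genes of Toll-like receptor 4 signalling itself were near the share over all peaks, with 58 of 183 higher and 18 lower. Tlr4, Irak3, which encodes a kinase that damps the pathway, and Tab2 had 7, 8 and 7 higher peaks. The kinase genes Map3k7, Mapk14 and Mapk8 had 3 lower peaks each, and 1 higher peak among them, at Mapk14.

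**Figure D4:**
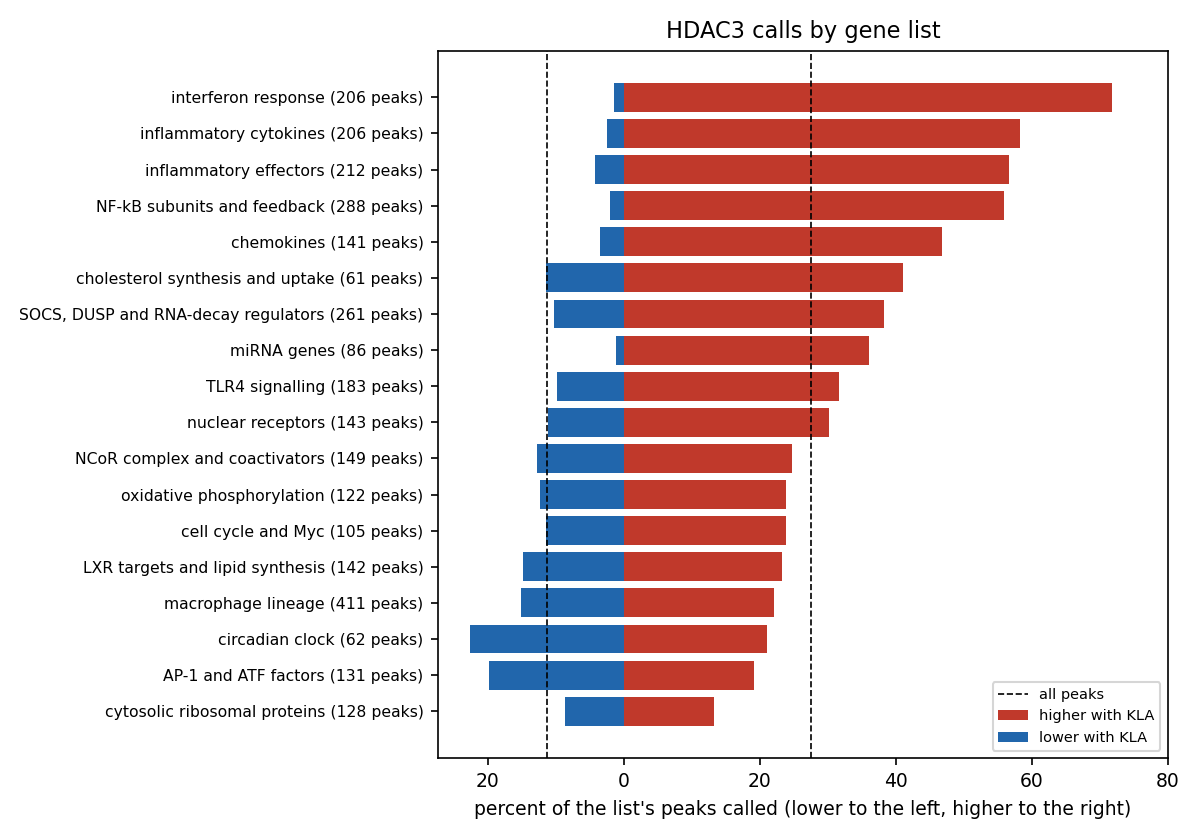
Percent of the HDAC3 peaks of each gene list called higher (red, to the right) and lower (blue, to the left) with KLA (x), by list with its number of peaks (y). Dashed lines mark the shares over all peaks, 27.5% higher and 11.3% lower. The interferon, cytokine, effector and NF-kB lists lie at 55.9% to 71.8% higher, and the clock and AP-1 lists have the largest shares of losses.

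The clock and AP-1 lists had the largest shares of losses, 22.6% and 19.8% against 11.3% over all peaks. For the circadian clock, 13 of 62 peaks were higher and 14 lower, with gains at 5 and losses at 9 of 17 genes (5648 and 3149 of 12151 over all genes). Of the gains 7 lay at Nfil3, while Arntl, which encodes BMAL1, and the repressor genes Bhlhe40 and Bhlhe41 had 2, 2 and 3 peaks lower and none higher. Per1 lost HDAC3 at its promoter, from 56 and 57 to 8.21 and no tag (chr11:69099309-69099553). Among AP-1 and ATF factors, 25 of 131 peaks were higher and 26 lower. Jun alone accounted for 12 losses, the strongest 161 kb upstream of its start (chr4:95213010-95213234) with 76.4 and 96.2 against 4.69 and 1.76. Batf, which encodes a partner of Jun and of IRF factors, had 8 of 13 peaks higher and none lower.

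LXR targets and lipid synthesis genes had 33 of 142 peaks higher and 21 lower (23.2% and 14.8%). Apoe lost HDAC3 at both of its peaks, and the one at its promoter (chr7:19698980-19699185) fell from 64 and 59.7 to 3.52 and 5.27, a log2 change of -3.91 ± 0.60 (edgeR adjusted p = 1.33e-09). The lipoprotein lipase gene Lpl had 4 of 13 peaks lower and 2 higher, and the strongest loss there (chr8:68918384-68918589), from 99.7 and 85.2 to 14.1 and 15.8, was in a window with a DR4 consensus. Mertk and Abca1 had peaks of both kinds, 3 higher and 4 lower for the first and 5 and 2 for the second. In the cholesterol list, 17 of the 25 gains belonged to Ch25h, the cholesterol 25-hydroxylase gene, while Insig1 had 3 of 5 peaks lower and none higher.

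Macrophage lineage genes had 91 of 411 peaks higher and 62 lower (22.1% and 15.1%). Runx1 had 14 higher and 5 lower peaks of 53, Maf 13 and 5 of 45, and Adgre1, the F4/80 antigen gene, 7 higher and none lower of 17. Lyz2, the lysozyme gene, had 5 of 8 peaks lower and none higher, and Trem2 2 of 3. Klf4 had 9 lower and 4 higher peaks of 40, Mef2a 7 and 2 of 21, and Irf8 6 and 5 of 19. Cebpd, a C/EBP factor of the acute phase response, had 6 of 9 peaks higher and none lower, and Zeb2 10 higher and 1 lower of 29. Among nuclear receptors, 24 of the 43 gains belonged to the glucocorticoid receptor gene Nr3c1, and Rxra, the common dimer partner, had 5 of 10 peaks lower and 1 higher. Among genes of the NCoR complex itself and coactivators (37 higher and 19 lower of 149), Bcl6 and Rbpj had 8 and 11 higher peaks. No HDAC3 peak was assigned to Ncor1 or Hdac3.

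The remaining lists are set beside the shares over all peaks, 27.5% higher and 11.3% lower. Cytosolic ribosomal proteins had 17 of 128 peaks higher and 11 lower (13.3% and 8.59%). Oxidative phosphorylation genes had 29 and 15 of 122 (23.8% and 12.3%), and cell cycle genes and Myc 25 and 12 of 105 (23.8% and 11.4%). The host and nearest genes of microRNAs had 31 of 86 peaks higher (36%, above the 27.5% over all peaks) and 1 lower. Of the gains 9 belonged to Mir155hg and 8 to Mir21a. The loss lay near Mir223 (chrX:96256581-96256807), a microRNA of the myeloid lineage, with 78.6 and 81.8 against 18.2 and 42.1. Its call was lost without either Veh library and without KLA replicate 1, where its log2 change was -0.93 in place of -1.53. With TMM factors, and again without KLA replicate 2, the losses outnumbered the gains for the macrophage lineage, lipid and ribosomal lists, where the reverse held with all libraries and their totals. For the clock and AP-1 lists the losses outnumbered the gains in all 3 fits, although with the library totals only by 14 to 13 and 26 to 25. Among the peaks called in all 6 fits the order was kept for the clock list but reversed for the AP-1 list.

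At the genes that the study followed in its own examples, the strongest peaks behaved differently from each other. At the Ptgs2 promoter (chr1:150099868-150100110) HDAC3 measured 58.2 and 70.2 with Veh and 181 and 288 with KLA. At the promoter of Cp, the ceruloplasmin gene (chr3:19957025-19957278), it rose from 26.9 and 19.4 to 191 and 248, a log2 change of 3.24 ± 0.40. The strongest Il12a peak, 57.9 kb upstream (chr3:68632634-68632873), rose from 41.5 and 32.1 to 233 and 286. All 3 were called, although the call at Ptgs2 was lost without either Veh library.

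The strongest peaks of Abca1, Scd2, Csf1r and Spi1 were not called. Abca1 (chr4:53121937-53122159) held 423 and 350 with Veh and 318 and 606 with KLA, so that the 2 KLA libraries lay on either side of the Veh libraries. Csf1r, the receptor for macrophage colony stimulating factor (chr18:61108574-61108792), held 357 and 309 against 166 and 270, a log2 change of -0.63 ± 0.38 (edgeR adjusted p = 0.186). This depended on the scaling and on KLA replicate 2: the change of Csf1r was -0.94 with TMM factors (edgeR adjusted p = 7.12e-06, under 2-fold), and without that library the peak was called lower (edgeR adjusted p = 1.78e-07). At Npas2 the upstream peak whose sequence is shown above held 166 and 171 against 92 and 128 (-0.63 ± 0.36, and -0.90 with TMM factors), while the peak about 1 kb downstream of it lost nearly all of its HDAC3.

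Many genes had several called peaks. HDAC3 was higher near 5648 of 12151 genes with a peak and lower near 3149, and 1443 genes had both. At least 5 gains fell to 646 genes, and at least 5 losses to 147. Slco3a1 had the most gains, 32 of its 35 peaks over 386 kb, and none lower. The summed level of these 32 peaks was 354 and 368 tags per 10 M with Veh and 2222 and 3451 with KLA. Itgb8, an integrin subunit that activates TGF-beta, followed with 27 of 30 peaks, then Lpp and Tnfaip3 with 26 each and Nr3c1 with 24. On the other side stood Jun with 12 losses, Dhrs3, Fli1 and Mir5130 with 11 each and Ggta1, Sipa1l2, Snx24 and Ubash3b with 10 each. Most of the losses at each of these genes were not called in every one of the 6 fits. The same held for most gains of Nr3c1, whereas most gains of Slco3a1, Itgb8 and Tnfaip3 were called in all 6. At Fli1, which encodes an ETS factor, the 11 lower peaks summed to 1499 and 1452 with Veh and 492 and 760 with KLA, and no peak of Fli1 was higher.

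The letters under the peaks differed between gains and losses. Base composition differed too, with a median GC of 43% in higher, 49.5% in lower and 48% in uncalled peaks, and the shares below were not adjusted for it. The kappaB consensus was present in 11.1% of the higher peaks, 2% of the lower and 5.71% of all peaks of the same 200 bases, and of the 2771 peaks that held it 53.6% were higher and 3.93% lower. A pair of adjacent GAAA elements, the core of the interferon-stimulated response element, followed the same order, in 12.7%, 2.75% and 6.97%. AP-1 (TGANTCA) was in 24.7% of the higher, 13.9% of the lower and 21.2% of all peaks, and C/EBP (TTGCNNAA) in 19.1%, 13.6% and 16.1%. Among distal peaks the excess in gains was smaller for both. There AP-1 was in 25.7% of higher, 14.7% of lower and 23.9% of all peaks, and C/EBP in 19.3%, 14.1% and 17.4%.

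PU.1 (GAGGAAGT) ran in the opposite order, in 5.93% of the higher, 15.9% of the lower and 10.8% of all peaks, and RUNX (TGTGGTTT) was in 4.03%, 7.25% and 4.78%. The RORE was rare but more frequent in lower peaks, 0.934% against 0.382% in higher peaks and 0.483% in all (51, 51 and 234 peaks). So was the DR4, at 0.293%, 0.0674% and 0.136% (16, 9 and 66 peaks). Promoter elements were least frequent in the gains: GGGCGG, bound by SP and KLF factors, was in 4.67% of higher, 8.7% of lower and 15.5% of uncalled peaks. Restricting to distal peaks kept the order for kappaB (10.4% of higher, 1.94% of lower) and PU.1 (6.04% and 16.3%), and so did the calls without KLA replicate 2 (kappaB 11.9% and 1.91%, PU.1 5.42% and 15.9%). These are counts of matching letters, not of bound factors.

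Other factors measured in the same kind of cells were read at the HDAC3 peaks, each from its own 2 control and 2 KLA libraries and matched where peak centres lay within 100 bases (500 for H3K27ac). NCoR, the partner of HDAC3, was matched at 11401 of the 13360 higher peaks and was itself higher at 8718 of these (76.5%) and lower at none. At the 5055 matched lower peaks it was lower at 4233 (83.7%) and higher at none. Over all NCoR peaks 23.4% were higher and 16.7% lower. These matched gains were 67.8% of all NCoR gains, and the matched losses 46% of all NCoR losses. HDAC3 and NCoR libraries share their input samples in the labels, and whether they came from the same chromatin is not stated.

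The NF-kB subunit p65 was higher at 10155 of 10682 matched HDAC3 gains (95.1%), against 47.3% of uncalled HDAC3 peaks and 57% of all p65 peaks, and lower at 2, where 5.43% of all p65 peaks were lower. At HDAC3 losses it was matched less often, at 57.8% against 80% of the gains, and was higher at 148 and lower at 653 of 3156. With TMM factors within the p65 table, p65 was higher at 7419 of the matched gains (69.5%) and lower at 2148 of the matched losses (68.1%). For p300 the control libraries carry a KLA time of 0 h in their description, whereas those of HDAC3, NCoR, p65 and PU.1 are Veh at 6 h. The acetyltransferase p300 was higher at 87.6% of matched gains and lower at 51.7% of matched losses, where over all its peaks 42.1% were higher and 12.9% lower. PGC1β, a transcriptional coactivator, was higher at 77.4% of 5329 matched gains and lower at 31.3% of 3210 matched losses (16.4% and 6.35% over all its peaks). The median log2 change at HDAC3 gains was 3.19 for p65, 2.58 for p300, 2.08 for PGC1β and 1.95 for NCoR. This order depended on the scaling. With TMM factors within each table the medians were 1.98, 2.07, 1.94 and 1.94.

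PU.1 separated the groups in another way. Only 3864 of the 13360 higher HDAC3 peaks (28.9%) had a PU.1 peak, against 81.6% of the lower peaks and 70.3% of the uncalled. Where matched, PU.1 was higher at 43.1% of HDAC3 gains and lower at 63.4% of HDAC3 losses, with 4.53% and 21.7% over all PU.1 peaks. The matched HDAC3 gains held 72.5% of all PU.1 gains. With TMM factors within the PU.1 table, PU.1 was higher at 2547 and lower at 1617 of these matched gains and losses, in place of 1665 and 2829.

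Acetylated H3K27, the mark of active enhancers and promoters, was matched at 1413 gains and 1432 losses. It was higher at 461 of the gains (32.6%) and lower at 20, and at the losses it was lower at 195 (13.6%) and higher at 55. Over all H3K27ac regions 7.99% were higher and 4.57% lower. The median log2 change of H3K27ac was 0.84 at HDAC3 gains, 0.19 at uncalled peaks and -0.32 at HDAC3 losses. At most of the matched gains and of the matched losses H3K27ac was not called in either direction. HDAC3 sites without a match, the larger part of both kinds, enter none of these values. H3K27ac thus moved in the same direction as HDAC3 more often than in the opposite direction at both kinds of site, and with the HDAC3 calls made without KLA replicate 2 the shares were 36.9% higher at gains and 11.2% lower at losses.

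**Figure D5:**
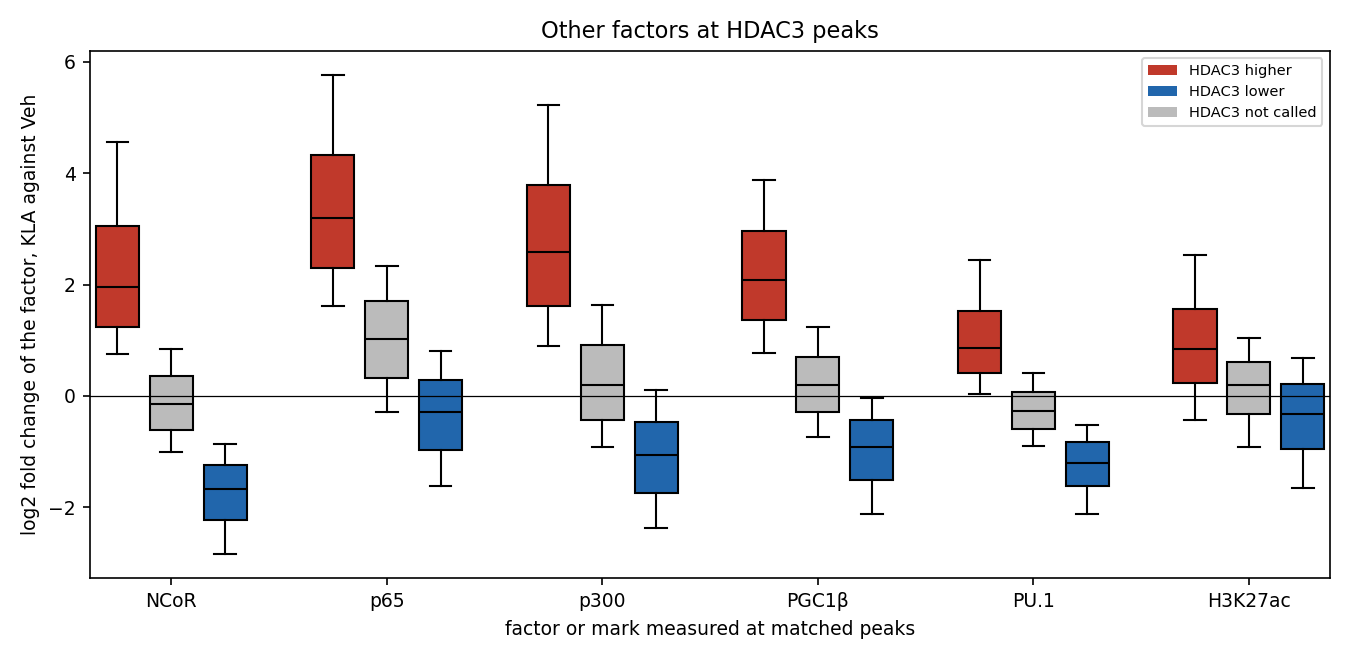
Log2 fold change of 5 factors and of H3K27ac with KLA (y) at HDAC3 peaks matched to a peak of that factor (x), for HDAC3 peaks that were higher (red), not called (grey) or lower (blue). Boxes span the quartiles with the median as a line, and whiskers the 10th to 90th percentiles over peaks. The medians at HDAC3 gains range from 0.84 for H3K27ac to 3.19 for p65, and those at losses from -1.66 for NCoR to -0.28 for p65. All are with the library totals. With TMM factors within its table the p65 medians were 1.98 at gains and -1.50 at losses.

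Of the 13360 higher HDAC3 peaks, 6313 (47.3%) also had p65, p300 and NCoR each higher, and 508 (3.8%) had no matched peak of any of the 6. Of the lower peaks, 428 (7.83%) had all 3 lower, 1964 (36%) had p300 and NCoR lower, and 22 had no match.

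The responses of HDAC3 and NCoR were then compared directly, with the difference of their log2 changes as the term tested over the 8 libraries at 42594 matched peaks. No peak passed in either direction (0% higher and 0% lower) and the lowest edgeR adjusted p was 0.267. At an unadjusted p below 0.05 there were 1940 peaks (4.55%), 1223 with the log2 change of HDAC3 above that of NCoR and 717 with it below. The median difference was 0.15 and the median standard error of a difference 0.55 log2 units. This balance turned in other fits. With TMM factors for each protein, 1321 peaks at that p were above and 2117 below, with a median difference of -0.05, and without KLA replicate 2 the counts were 513 and 1792, with a median of -0.13. Without KLA replicate 1, which leaves replicate 2 as the only KLA library of HDAC3, 8014 peaks had an unadjusted p below 0.05 and 3 were called.

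The peaks with the lowest p in that comparison lay mostly where 1 of the 2 proteins had next to no tags with Veh. At an intronic peak of Irak3 (chr10:120191308-120191539) HDAC3 rose from 13.1 and 7.19 to 176 and 212 and NCoR from no tag in either library to 190 and 174. Intronic peaks of Skil and Lpp had the same form, with no NCoR tag under Veh. In the other direction, at a St3gal3 peak (chr4:118149245-118149480) HDAC3 rose from no tag to 53.9 and 112 and NCoR from 7.17 and 7.06 to 60.7 and 66.4. At the promoters of Morf4l2 and Atxn1 the difference came with a split between the HDAC3 KLA libraries, which held 56.9 and 184 at Morf4l2 and 25.2 and 77.3 at Atxn1, while NCoR fell from 98 and 138 to 42.9 and 38.7 at the first. All of these had an edgeR adjusted p of 0.512 to 0.646 and did not pass.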

How the data were processed

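HDAC3 and the other factors were measured by ChIP-seq in WT BMDMs. As the labels and methods describe, the authors crosslinked cells with DSG and formaldehyde (H3K27ac with formaldehyde alone), aligned reads to mm10 with Bowtie2, called peaks with HOMER, merged the reproducible peaks of both conditions and counted tags per peak. Versions are not given in the sources used here. The deposited values are raw tag counts, not normalized, with library totals in the file headers. Peaks were kept with at least 4 tags in 1 library (16 for H3K27ac), and all 48502 HDAC3 peaks passed. Counts were tested with edgeR 4.0.16 (glmQLFit, glmQLFTest) in R 4.3.3, with header totals as library sizes. Called peaks had a Benjamini-Hochberg adjusted p below 0.05 and over 2-fold change. Standard errors are the log2 change over the root of F. p-values measure the spread between 2 replicates a group, whose animals are not stated. On counts simulated for the HDAC3 comparison over 48502 peaks, 88% of 50 peaks changed 4-fold and 26% of 50 changed 2.5-fold were recovered, with 2.33% false calls. The simulated means followed the library totals and lacked the shift of KLA replicate 2. These shares therefore do not give the error rate of the calls made here. Of 48307 peaks with a matched transcript, 94% had their stated distance to the start within 5 bases in GRCm38.p6. Members, lists, motifs and naming rules were chosen with earlier results of these data known. Named peaks were the 10 with the lowest p per direction (1 per gene, no predicted genes), the 2 lowest per list and direction, the strongest peak of 9 genes, the 5 genes with the most calls and the 5 lowest p of the NCoR comparison. Genes within a list named for their counts were chosen after their values were seen. Alternatives were TMM and DESeq2 size factors, DESeq2 1.42.0, other filters, a replicate block, thinning to the smallest library and leaving out each library. Counting intervals cover counting error only. Input samples and 8 of 15 count tables were not used here. The values of 1 gene of the NCoR complex list are not reported here.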

Additional observations from a re-analysis of the deposited data

How the results depend on the processing

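The tag filters changed nothing, since all peaks passed them. HDAC3 and NCoR libraries of the same replicate number showed no shared deviation (correlations of deviations between -0.0126 and 0.0078). This does not exclude a pairing, since counting error and the shift of KLA replicate 2 also enter the deviations. With the replicate block HDAC3 was higher at 12866 and lower at 5050 peaks. In the comparison of HDAC3 with NCoR the replicate block gave 6 peaks higher and 3 lower in place of none, and TMM factors within each table gave 1 and 1. DESeq2's Wald test called 11196 higher and 7552 lower, and thinning every library to the smallest total 12291 and 4617. Leaving out 1 library left a lone sample, assumed to vary like the other group, and gave these lowest and highest counts: HDAC3 higher 5880 to 17030, lower 1561 to 8112, proximal higher 576 to 2535, proximal lower 192 to 1370, distal higher 5297 to 14495, distal lower 1367 to 6742, listed genes higher 595 to 1354, listed genes lower 74 to 421, higher peaks with kappaB 893 to 1728, lower peaks with PU.1 221 to 1286, and HDAC3 above NCoR 0 to 3. The lowest counts came without a Veh library. Proximal losses rose to 1270 with TMM factors and 1235 with DESeq2 size factors. With TMM factors within each table, p65 was lower at 2148 HDAC3 losses, PU.1 lower at 1617 losses and PU.1 higher at 2547 gains. The sign turned only for 3 uncalled peaks among the 95 named: Abca1 (-0.10 with TMM factors, -0.08 with DESeq2 size factors or the Wald test, and -0.28 to 0.65 when leaving out 1 library), Scd2 (-0.52 to 0.38 when leaving out 1 library, turning to 0.09 without Veh replicate 2, and 0.07 when thinned) and Spi1 (-0.30 to 0.25, turning to 0.14 without Veh replicate 2, and 0.01 when thinned). The cause was not tested. Of the 90 called, 84 kept their call in all 6 fits. HDAC3 calls without KLA replicate 2 at the other factors' peaks were added after seeing the data. In KLA replicate 2, 3 tags are 5.27 per 10 M, which limits how low a level it can show.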
